A study of Mus musculus with 4 samples.

Results

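The genes described here are 10 well-known transcriptional targets of the tumour suppressor p53: Mdm2, Gdf15, Btg2, Perp, Ccng1, Trp53inp1, Sesn1, Sesn2, Bax and Zmat3. They were chosen by name from a table of 22691 genes, and all 10 were found there. The table describes fibroblasts grown from female mouse fetuses at E13.5, sequenced as polyadenylated RNA to study how the chromatin protein SmcHD1 maintains silencing of the inactive X chromosome. The WT group has the genotype Smchd1 +/+ and the MD1 group the genotype Smchd1 MD1/MD1, with 2 libraries each. Both groups carry Xist deltaA on 1 X chromosome, inherited from a B6 mother, and have B6-JF1 F1 fathers, so the X from the father, of JF1 origin, is the inactive one. The MD1 mutation is present in every cell of the culture and is not limited to a tissue or a time.

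p53 is a transcription factor that is kept scarce by the ubiquitin ligase Mdm2 and accumulates after DNA damage, oncogene activity or the stress of growth in culture. It binds a site made of a pair of short half-sites near its target genes. Its targets halt the cell cycle, start cell death, adjust metabolism, repair DNA and limit p53 itself. In cultured mouse embryonic fibroblasts this pathway, switched on in part through p19Arf, is known to bring growth to a stop after several passages.

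Total expression was deposited as 1 mean FPKM (fragments scaled to transcript length and library size) per group, and values per library were not used here. Differences in FPKM therefore have no replicate check, no error and no test, and a single library could have set any of them. The ratio used throughout is log2 of (FPKM + 1) in MD1 over WT, on which a low gene's change is understated. It was formed for the 11399 genes whose FPKM averaged at least 1 and was above 0 in both groups, and all 10 members passed. Smchd1 itself went from 14.7 FPKM in WT to 1.94 in MD1, leaving 13.1%. Allele-specific reads of X-linked genes, the only reads given per library, totalled 544330 and 521768 in WT and 704635 and 806626 in MD1. They include reads of the JF1 X, whose share was higher in MD1, so they do not measure depth alone. Over genes with a share, B6 reads totalled 525156 and 508337 in WT and 472817 and 561099 in MD1.

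RefSeq promoter sequences (build GRCm38.p6, 250 bases before to 50 after a start) were found for 7 of the 10 members, with 9 starts in all, and for none of Perp, Trp53inp1 and Zmat3. They were searched for the p53 response element, taken as 2 half-sites of 10 bases separated by at most 2 bases, with both cores kept and at most 3 mismatches in all. The element reads the same on both strands. The stretches below, each of the 250 bases before a start, are shown because they hold the best matches among the members, and that of Btg2 because this gene was among the lowest in MD1 and held no match. Capitals mark the p53 element in Bax, a half-site with no mismatch in Ccng1, Mdm2 and Sesn1, and the box CCAAT in Btg2.
Bax: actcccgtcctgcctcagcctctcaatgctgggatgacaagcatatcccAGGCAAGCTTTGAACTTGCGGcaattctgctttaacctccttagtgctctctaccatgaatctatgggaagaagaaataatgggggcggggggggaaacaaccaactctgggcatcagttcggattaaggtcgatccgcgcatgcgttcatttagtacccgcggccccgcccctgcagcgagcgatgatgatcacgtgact
Ccng1: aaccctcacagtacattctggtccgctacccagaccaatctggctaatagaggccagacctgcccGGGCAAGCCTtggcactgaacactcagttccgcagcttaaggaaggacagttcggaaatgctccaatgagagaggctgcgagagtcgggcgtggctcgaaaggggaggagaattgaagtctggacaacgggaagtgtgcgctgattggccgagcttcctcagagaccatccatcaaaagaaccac
Mdm2: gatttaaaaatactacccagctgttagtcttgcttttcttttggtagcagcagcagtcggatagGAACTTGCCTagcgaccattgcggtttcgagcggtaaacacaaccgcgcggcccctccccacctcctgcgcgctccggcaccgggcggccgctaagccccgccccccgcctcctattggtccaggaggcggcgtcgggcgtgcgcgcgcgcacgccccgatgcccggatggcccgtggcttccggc
Sesn1: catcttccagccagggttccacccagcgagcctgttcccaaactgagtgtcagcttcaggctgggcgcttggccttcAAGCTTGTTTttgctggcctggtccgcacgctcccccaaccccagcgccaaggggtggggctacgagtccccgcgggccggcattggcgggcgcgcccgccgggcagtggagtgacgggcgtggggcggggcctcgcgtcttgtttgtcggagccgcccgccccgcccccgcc
Btg2: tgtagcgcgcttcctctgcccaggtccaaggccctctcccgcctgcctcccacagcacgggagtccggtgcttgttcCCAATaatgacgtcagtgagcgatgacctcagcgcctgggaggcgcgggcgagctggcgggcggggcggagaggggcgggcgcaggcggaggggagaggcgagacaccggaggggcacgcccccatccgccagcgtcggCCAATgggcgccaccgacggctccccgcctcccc

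The Bax stretch is chr7:45466899-45467148 on the minus strand, and its element lies 201 to 181 bases before the start, with 1 base between the half-sites and 2 mismatches. It was the only match among the 9 promoters of members, while 1.63% of 32851 promoters of the same length held one. A half-site without a mismatch stood in 4 of the 9 promoters, against 8.36% of all. These were the promoter of Bax, that of Ccng1 (chr11:40755287-40755536, minus strand, 185 to 176 bases before the start), that of Mdm2 (chr10:117710759-117711008, minus strand, 186 to 177) and the second of 2 starts of Sesn1 (chr10:41887189-41887438, plus strand, 173 to 164). The Btg2 stretch (chr1:134079156-134079405, minus strand) had CCAAT 173 to 169 and 34 to 30 bases before the start. CCAAT, read on both strands, was in 7 of the 9 promoters and in 37.4% of all, GGGCGG in 6 of 9 and 35.7%, and TATAAA in 0 of 9 and 13.6%. Of 77 promoters of other p53 targets, listed below, 14.3% held a p53 match and 19.5% a half-site without a mismatch. CCAAT was in 36.4% of these, GGGCGG in 74.0% and TATAAA in 10.4%. A match is a run of letters and does not show that p53 binds, and p53 elements outside these windows were not searched.

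All 10 members were lower in MD1. Summed over them, FPKM came to 992.6 in WT and to 697.3 in MD1, leaving 70.2%. The median log2 ratio of the members was -0.55, and that of all 11399 genes was 0.0058. Of the 10 members 5 were lower by at least 1.5-fold on FPKM + 1, namely Gdf15, Btg2, Perp, Trp53inp1 and Ccng1, where 7.65% of all genes were. At least 2-fold lower were Gdf15 and Btg2, against 2.81% of all genes. Perp and Trp53inp1 were just short of it, and without the pseudocount they were 2.03-fold and 2.05-fold lower, which makes 4 members. The share of all genes at least 2-fold lower without the pseudocount was not computed. A lower value by any amount was found for 49.2% of all genes. No member was higher, where 6.05% of all genes were higher by at least 1.5-fold and 1.39% by at least 2-fold.

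**Figure D1:**
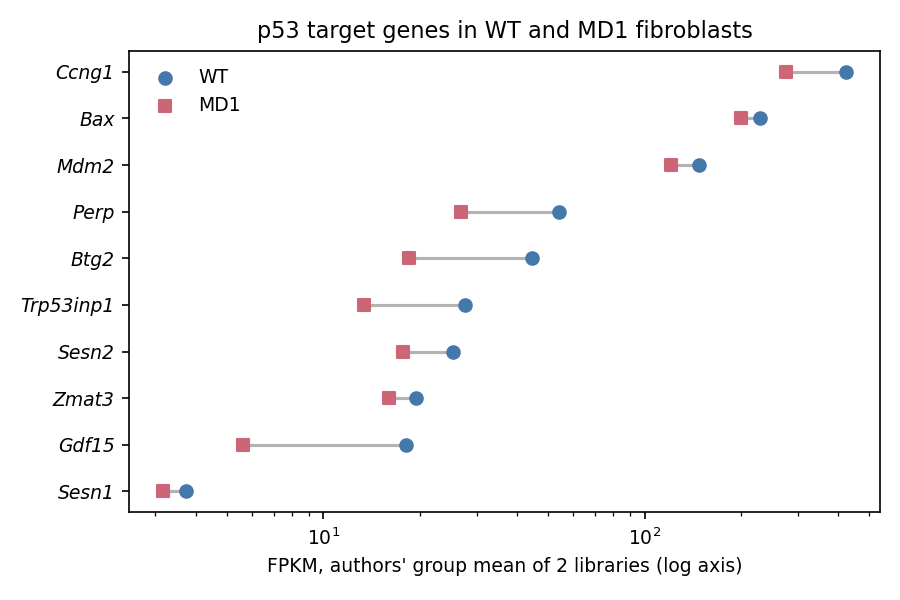
Group mean FPKM (log axis) of the 10 members in WT (circles) and MD1 (squares), ordered by the WT value, with a line joining each pair and no error bars because the FPKM are group means. Each square lies left of its circle, by most for Gdf15 (18.1 and 5.62) and by least for Bax and Sesn1.

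The members differed widely in level. In FPKM, which is per length, Ccng1 was highest in both groups, followed by Bax and Mdm2. These 3 made up 80.5% of the members' summed FPKM in WT and 85.5% in MD1. Sesn1 was lowest in both groups, at 3.74 and 3.17 FPKM. Gdf15 was second lowest in both groups, and Perp and Btg2 were the highest after Mdm2. Trp53inp1 stood above Sesn2 and Zmat3 in WT and below both in MD1. Zmat3 and Gdf15 lay close together in WT, at 19.4 and 18.1 FPKM, and apart in MD1, at 15.998 and 5.62. Neighbours in these orders could not be tested against a spread.

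Among the genes that act back on p53, Mdm2, its main ubiquitin ligase (chromosome 10, 117125931 to 117147814, mm9), had 148.1 FPKM in WT and 120.6 in MD1, a log2 ratio of -0.29. MD1 was at 81.4% of WT, and 18.9% of all genes had a lower ratio. Ccng1, which encodes cyclin G1, a partner of the phosphatase PP2A that acts on Mdm2 (chromosome 11, 40562054 to 40568788), had 422.8 and 275.4 FPKM, a log2 ratio of -0.62. This was close to the 1.5-fold bound, and after quantile normalization of the 2 groups it was -0.51, within the bound. Its drop of 147.4 FPKM was 49.9% of the summed drop of all members, since it started from the highest level. Trp53inp1, a stress protein that raises p53 activity and takes part in autophagy (chromosome 4, 11083588 to 11101524), had 27.5 and 13.4 FPKM, a log2 ratio of -0.99. These 3 genes thus spanned from 1.23-fold to 1.98-fold lower on FPKM + 1, with Mdm2 the least lowered.

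Gdf15 and Btg2 had the lowest ratios among the members. Gdf15, a secreted stress cytokine of the TGF-beta superfamily (chromosome 8, 73153293 to 73155534), had 18.1 FPKM in WT and 5.62 in MD1, a log2 ratio of -1.53. Only 0.956% of all genes had a lower ratio. Btg2, an antiproliferative protein that binds the CCR4-NOT deadenylase (chromosome 1, 135971442 to 135975732), had 44.6 and 18.5 FPKM, a log2 ratio of -1.23. Without the pseudocount these were 3.22-fold and 2.41-fold lower.

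The pair of cell death genes differed from each other. Perp, a membrane protein of desmosomes that also takes part in p53-dependent apoptosis (chromosome 10, 18564877 to 18576878), had 54.3 FPKM in WT and 26.8 in MD1, a log2 ratio of -0.99. Bax, which forms pores in the outer mitochondrial membrane (chromosome 7, 52717065 to 52722268), had 228.7 and 200.02 FPKM, a log2 ratio of -0.19. In Perp MD1 was at 49.4% of WT and in Bax at 87.5%. Whether this gap exceeds the spread between libraries was not testable.

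Sesn2 and Sesn1, sestrins which bind GATOR2 and restrain the growth kinase complex mTORC1, were lower by less. Sesn3, a sestrin outside the members, had 9.30 FPKM in WT and 4.97 in MD1, a log2 ratio of -0.79. Sesn2 (chromosome 4, 132048722 to 132066371) had 25.3 FPKM in WT and 17.7 in MD1, a log2 ratio of -0.49, or 1.41-fold lower on FPKM + 1. Sesn1 (chromosome 10, 41530380 to 41628242) had 3.74 and 3.17 FPKM, a log2 ratio of -0.18. Zmat3, a zinc-finger protein that binds RNA and regulates splicing (chromosome 3, 32233716 to 32264587), had 19.4 and 15.998 FPKM, a log2 ratio of -0.27. The Zmat3 span overlaps that of 4930429B21Rik on the other strand, at 8.88 and 4.34 FPKM. Whether the counting used strand is not given in the sources used here, so the value of Zmat3 is uncertain. No other member overlapped a gene of the table.

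**Figure D2:**
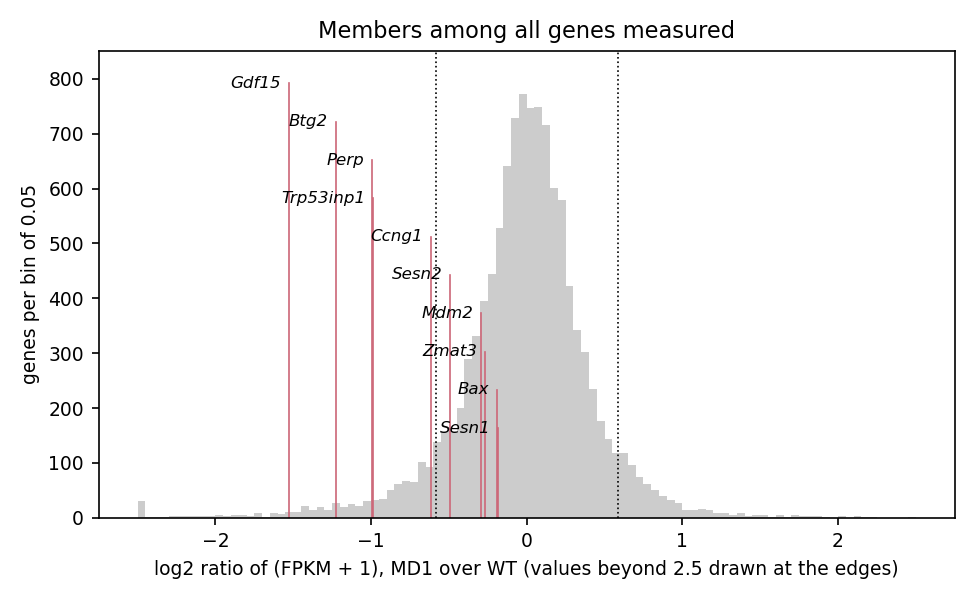
Histogram of the log2 ratio of (FPKM + 1), MD1 over WT, for 11399 genes in bins of 0.05, with values beyond 2.5 drawn at the edges, a red line at each member and dotted lines at 1.5-fold. Every member lies left of 0, 5 of them left of the dotted line, while 27.3% of all genes lie below the ratio of Sesn1, the member nearest to 0.

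The fathers were B6-JF1 hybrids, so fetuses can inherit JF1 or B6 alleles in blocks of autosomes. Such a difference between the groups cannot be told apart from the Smchd1 genotype for single genes. The ratios of neighbouring genes were set beside those of the members, for genes whose midpoint lay within 1 Mb on either side. This comparison cannot decide whether a block differed, since a variant can change a single gene and not its neighbours. All 10 members were below the median of their neighbours, which follows in part from all 10 ratios being below 0. For Gdf15 none of 63 neighbours had a lower ratio, and their median was -0.089. The same held for Btg2 with 20 neighbours (median -0.18), for Trp53inp1 with 14 (median 0.089) and for Ccng1 with 3 (median -0.052). For Perp 1 of 8 neighbours was lower, for Sesn2 1 of 30, for Zmat3 1 of 9 and for Mdm2 2 of 11. Sesn1 had 3 of 12 neighbours below it. Bax lay within its neighbourhood, with 20 of 52 neighbours lower and a median of -0.13. At least 1.5-fold lower in MD1 were 4 of 20 neighbours of Btg2, 5 of 63 of Gdf15 and 7 of 52 of Bax. For each other member 0 or 1 neighbour was, where 7.65% of all genes were. Alleles within the members themselves were not examined, since the allele-specific columns cover X-linked genes.

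**Figure D3:**
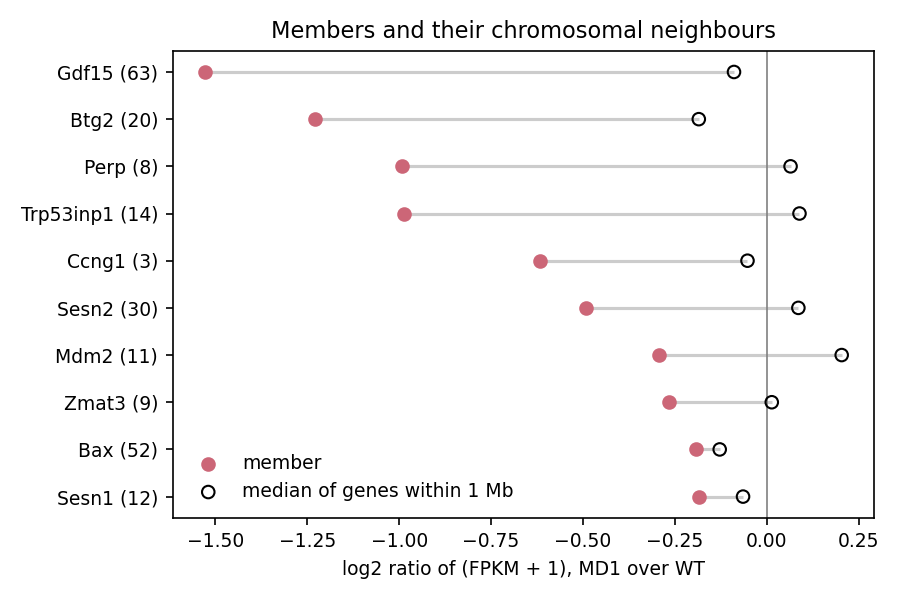
Log2 ratio of (FPKM + 1), MD1 over WT, of each member (filled) and the median of measured genes within 1 Mb (open), with the number of such genes in brackets. The open circles lie between -0.18 and 0.204, and each filled point lies to the left of its own, by least for Bax and Sesn1.

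Transcripts of p53 itself were not lower. Trp53 (chromosome 11, 69393861 to 69405375) had 91.5 FPKM in WT and 107.4 in MD1, a log2 ratio of 0.23. In a hand-made list of p53 and its regulators 18 genes were measured, with a median log2 ratio of 0.068. By at least 1.5-fold 1 was lower and 2 were higher, where 7.65% and 6.05% of all genes were. The lower one was Cdkn2a, whose locus encodes p16Ink4a and p19Arf, the inhibitor of Mdm2 that links culture stress to p53, at 70.9 and 37.01 FPKM (log2 ratio -0.92). The FPKM is of the whole gene and does not separate the 2 products. The higher ones were Chek1, a checkpoint kinase active in S phase (3.49 and 6.59 FPKM), and Sirt1, a deacetylase that acts on p53 (6.75 and 10.7 FPKM). Mdm4, the partner of Mdm2, had 8.73 and 7.73 FPKM, a log2 ratio of -0.16. Trp63 and Trp73, the relatives of p53, did not pass the filter, at 0.191 FPKM or less.

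Other p53 targets were grouped in 5 lists by role, and 60 of 64 genes in the table were measured. Of these, 13 were lower and 2 were higher by at least 1.5-fold, and 45 were within 1.5-fold. That is 21.7% lower, against 7.65% of all genes, and the median log2 ratio was -0.18. By any amount 44 were lower and 16 higher, where 49.2% of all genes were lower. Each count in the lists below is to be read beside these shares and the 6.05% of all genes that were at least 1.5-fold higher. The lists came from textbook knowledge, and they were drawn up with earlier results of these data known.

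Of 10 cell cycle targets 4 were lower and 0 higher by at least 1.5-fold, with a median of -0.21 that turned to 0.013 over 11 genes without the filter on FPKM. Cdkn1a, which encodes the CDK inhibitor p21 and is the best-known mediator of p53 arrest, had 370.1 FPKM in WT and 237.0 in MD1 (log2 ratio -0.64). Rprm, a cell cycle arrest protein of the G2 phase, had 13.1 and 5.29 FPKM. The stress gene Gadd45a had 19.2 and 8.27, and Sfn, the 14-3-3 sigma protein, 29.7 and 13.9. The 5 genes above 0 in this list stayed within 1.5-fold.

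Of 15 cell death targets 4 were lower and 0 higher, with a median of -0.34, and 13 of the 15 were lower by any amount. The genes of the BH3-only proteins Puma and Noxa, Bbc3 and Pmaip1, had 11.3 and 5.63 FPKM and 77.9 and 41.9 FPKM (log2 ratios -0.89 and -0.88). Pidd1, the scaffold of a caspase-activating complex, had 7.55 and 4.59 FPKM. The fourth was the X-linked receptor gene Eda2r, described below.

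Among metabolic targets 3 of 13 were lower and 0 higher, with a median of -0.14 (-0.25 over 10 genes at a mean FPKM of 5 or more). Those lower were the lipid transfer gene Pltp (9.56 and 3.63 FPKM), the mitochondrial enzyme gene Aldh4a1 (14.4 and 7.34) and the lysosomal fucosidase gene Fuca1 (41.9 and 25.7). The span of Pltp overlaps that of Ctsa on the other strand, at 134.7 and 95.98 FPKM. The value of Pltp is therefore uncertain, as for Zmat3. DNA repair targets were 0 lower and 1 higher of 6, with a median of -0.16, and the higher one was Polh, a translesion polymerase gene (9.52 and 15.7 FPKM). Of 16 signalling and surface targets 2 were lower, namely Dgka (5.07 and 1.82 FPKM) and Abhd4 (49.8 and 30.1), and 1 was higher. The median of this list was -0.13. The spans of Dgka and Gadd45a also overlap genes on the other strand, which were at 0.673 FPKM or less in both groups.

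**Figure D4:**
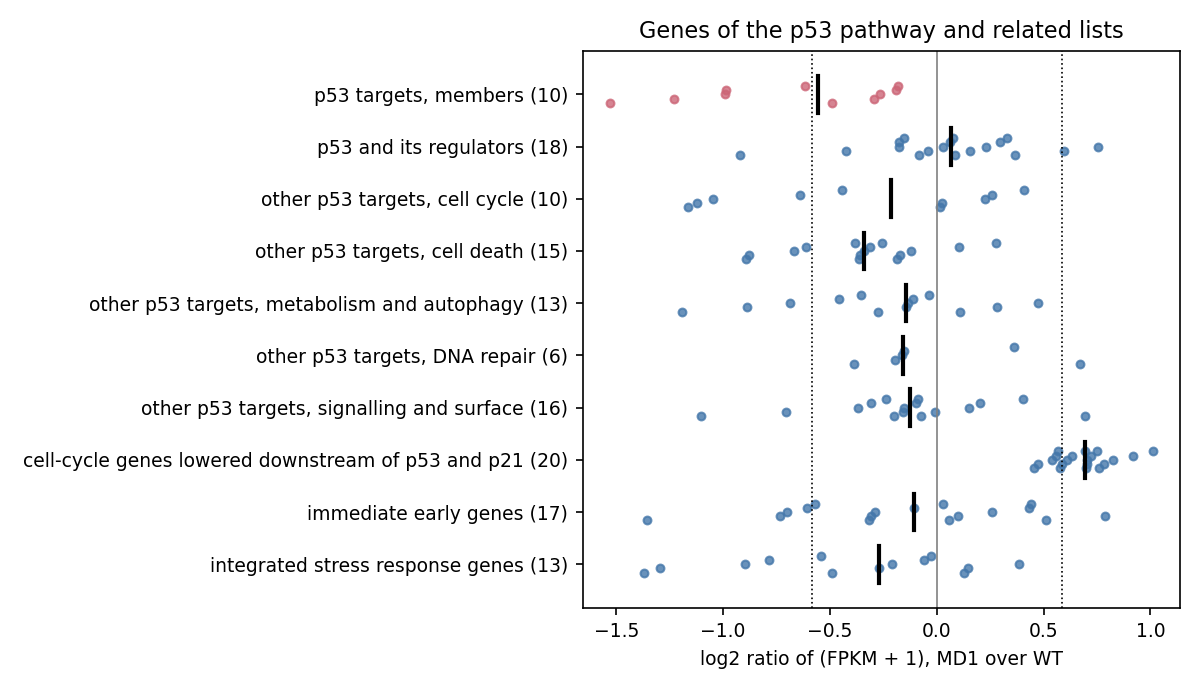
Log2 ratio of (FPKM + 1), MD1 over WT, of each measured gene (points, spread vertically for sight) in the members (red) and 9 other lists, with the list's median as a black bar, dotted lines at 1.5-fold and the number of genes in brackets. Of the lists shown, the members have the lowest median (-0.55) and the cell-cycle genes that p53 and p21 are known to lower have the highest (0.696).

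A further list held cell-cycle genes that p53 is known to lower through p21 and the DREAM repressor complex. All 20 in the list were higher in MD1, 14 of them by at least 1.5-fold, where 6.05% of all genes were, with a median log2 ratio of 0.696. Mki67, a marker of cycling cells, was at 15.8 FPKM in WT and at 32.8 in MD1, the mitotic kinase gene Cdk1 31.98 and 61.3, and the topoisomerase gene Top2a 39.3 and 70.4. Bulk RNA cannot tell more cycling cells from more RNA per cell, and the part of p53 in these values was not tested.

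Some members also respond to stimuli other than p53, so 2 further lists were set beside them. Btg2 is also an immediate early gene, and Gdf15, Sesn2 and Trp53inp1 respond to other stress as well. Of 17 immediate early genes 4 were lower and 1 higher by at least 1.5-fold, against 7.65% and 6.05% of all genes, with a median of -0.11. Fos had 21.7 and 7.84 FPKM, Dusp1 71.7 and 42.7, and Fosl1, the higher one, 37.3 and 65.1. The list of 13 genes for the integrated stress response, the ATF4 pathway, also holds genes of other stress responses. Of these 13, 4 were lower and 0 higher, with a median of -0.27. Ddit3, the gene of CHOP, had 74.5 and 28.2 FPKM, Trib3 16.2 and 5.996, and Atf5 101.6 and 54.1. The part of these responses in the members' values was not tested.

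Markers of cell types were also compared between the groups, where 7.65% of all genes were lower and 6.05% higher by at least 1.5-fold. Of 12 fibroblast markers all 12 were measured, 4 lower and 1 higher by at least 1.5-fold, with summed FPKM of 6300 in WT and 5289 in MD1. All 8 measured skeletal muscle markers of 12 were at least 1.5-fold lower, and their summed FPKM was 184.8 and 53.01. Of 12 epithelial markers 4 were measured, 1 lower and 0 higher by at least 1.5-fold and 3 lower by any amount, with summed FPKM of 23.5 and 27.03. The keratin gene Krt18 made up most of this sum, at 17.1 and 22.1 FPKM, with Krt8 at 2.57 and 2.41. Dsp, a desmosomal gene as Perp is, had 1.86 and 0.546 FPKM, a log2 ratio of -0.89. The other desmosomal genes of the list, Pkp1 and Dsg2, did not pass the filter and differed in direction. Pkp1 had 0.084 FPKM in WT and 1.03 in MD1, and Dsg2 0.443 and 0.255. Epcam and Cdh1, which define epithelia, were at 0.182 FPKM or less in both groups. The part of epithelial cells in the value of Perp was not tested. Of 9 endothelial markers 5 were measured, 2 lower and 1 higher by at least 1.5-fold, with summed FPKM of 28.5 and 25.6. Of 12 blood and macrophage markers 8 were measured, 1 lower and 0 higher, with 127.8 and 111.3. Of 9 neural markers 4 were measured, 1 lower and 2 higher, with 115.0 and 124.1. Krt5 and Tie1 were listed at 0 in MD1, but stood at only 0.016 and 0.0034 FPKM in WT, far below the filter. A smaller number of cells of a type and less RNA per cell cannot be told apart in bulk RNA, and the part of muscle cells in the members' values was not tested.

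Eda2r, the X-linked gene of a TNF receptor family member that p53 induces (X, 94529180 to 94572548), is the p53 target in these lists with values per library. Its FPKM was 35.9 in WT and 22.2 in MD1, a log2 ratio of -0.67. Its allele-specific reads numbered 4125 and 4501 in the WT libraries and 2378 and 3830 in the MD1 libraries. Reads of the B6 X, the active one in both groups, were compared on their own. Per 100000 B6 reads of X genes, the WT libraries had 781.1 and 877.0 for Eda2r and the MD1 libraries 466.4 and 644.5. Both MD1 libraries were below both WT libraries. The WT mean was 829.0 ± 67.8 (SD, n = 2) and the MD1 mean 555.4 ± 125.9 (SD, n = 2), which is 67.0% of WT. A permutation test (exact, two-sided) returned p = 0.333, and 2 against 2 libraries cannot give less.

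The share of Eda2r reads from the JF1 X was 0.558% and 0.955% in WT and 7.28% and 5.59% in MD1. The means were 0.756% ± 0.281 and 6.43% ± 1.19 (SD, n = 2), again without overlap between groups and with p = 0.333 in the exact two-sided permutation test. Pooled over all X genes with a share other than Xist, the JF1 share was 0.694% and 0.757% in WT libraries, against 30.97% and 29.1% in MD1 libraries, so in both MD1 libraries the share of Eda2r was below that of the X as a whole. Whether fetuses, cultures or libraries were the replicates is not stated, so the spread may be technical.

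**Figure D5:**
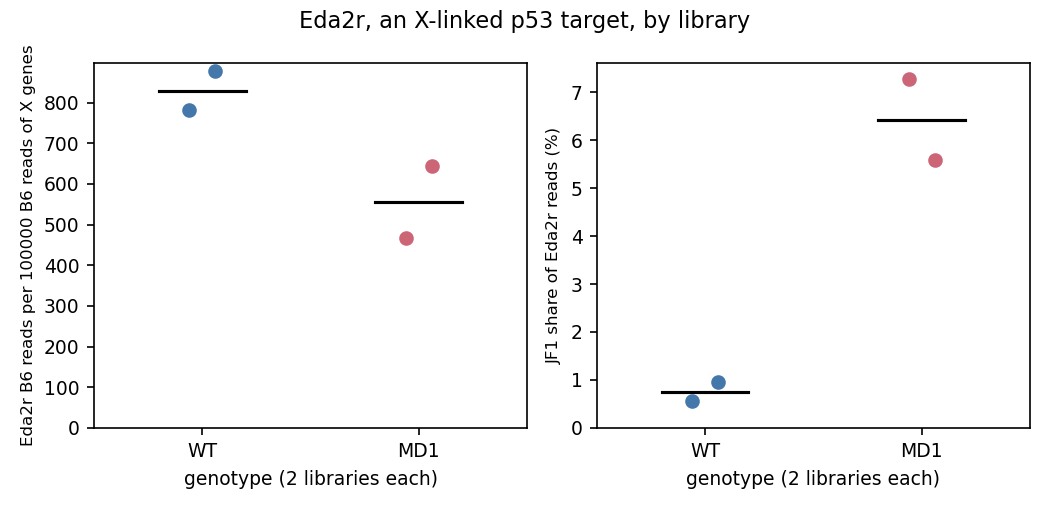
Eda2r in each library (points) with the group mean (black bar): B6 reads per 100000 B6 reads of X-linked genes on the left, and the JF1 percentage of its allele-specific reads on the right. The MD1 points lie below the WT points on the left (466.4 and 644.5 against 781.1 and 877.0) and above them on the right.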

How the data were processed

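Polyadenylated RNA of fibroblasts was sequenced in 4 libraries (2 WT and 2 MD1), prepared with a strand-specific kit, as the labels' protocols say. The authors deposited total expression as FPKM, 1 mean per group. They deposited allele-specific reads of X-linked genes as counts per library and the JF1 part of them as a fraction. The submitters' processing notes list the tools Cuffdiff and Cufflinks 2.2.1 and the build mm9, without saying what each did. For the aligner, annotation and JF1 variants: not given in the sources used here.

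Ratios, counts and medians were computed with Python 3.11.15 and pandas 2.3.3, and the calculation was tested on simulated data. The planned limma fit could not be made with group means, so nothing was tested but Eda2r, by an exact permutation test. JF1 reads of Eda2r were its share times its reads, which came out whole within 0.001. Starts in the table count from 0: moved up by 1, the spans of 9511 of 21379 genes matched by symbol equalled the RefSeq gene length, against 620 as given. Coordinates are 1-based, in mm9, except promoters in GRCm38.p6.

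The members and all lists were chosen with earlier results of these data known. Named genes are the members, genes of the p53 lists past 1.5-fold, 6 genes fixed by name (Trp53, Mdm4, Cdkn1a, Bbc3, Pmaip1, Eda2r), and the 3 with the largest ratio in each of the cell-cycle, immediate early and stress lists. Smchd1 was named as a check of the labels, and Sesn3, of the stress list, because it is a sestrin. The gene that was higher in the signalling list is not reported here. Neighbouring genes, the overlaps, Sesn3, the desmosomal genes and the markers given as defining were chosen after the values were seen. Alternatives were other pseudocounts, filters, scalings and folds.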

Additional observations from a re-analysis of the deposited data

How the results depend on the processing

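Alternatives were a pseudocount of 0.1 or 0.01, no filter on FPKM, a mean FPKM of 5 or more, quantile normalization, ratios centred on the autosomal median and rescaling without ribosomal protein genes. Under these the 10 members gave 69 ratios, since Sesn1 missed the filter at 5, and all 69 were below 0. A filter leaves a ratio as it is and a pseudocount cannot change its sign, so only the scalings could have turned one. The count of members at least 1.5-fold lower was 4 after quantile normalization and after rescaling, 5 under the others and without a pseudocount, and 2 with a fold of 2. Of all genes, 7.19% were at least 1.5-fold lower after quantile normalization and 8.27% after rescaling. This share ran from 5.76% without a filter to 9.99% with a pseudocount of 0.01, and with a fold of 2 it was 2.81%. It was not computed without a pseudocount. Ccng1 lay close to the bound, with a log2 ratio of -0.51 after quantile normalization and -0.58 after rescaling without ribosomal protein genes. The members' median was -0.62 at a mean FPKM of 5 or more, where 9 members remained. The median of p53 and its regulators was 0.045 without a filter and 0.105 after rescaling. The median of the cell cycle targets turned to 0.013 without a filter, over 11 genes in place of 10, and that of the metabolic targets was -0.25 at a mean FPKM of 5 or more. No scaling moved the median of all genes by over 0.1. Leaving out a library was not possible, since FPKM came as group means. No paired analysis was possible because there was no FPKM value per library, and Eda2r was compared by permutation alone. The ratio without a pseudocount was chosen after seeing the data. The depth behind FPKM is unknown.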
